A study of Drosophila melanogaster with 18 samples.

Results

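Of 10 named genes of synaptic vesicle release, 5 were measured here, each by 1 probe set: nSyb, Syn, Rab3, unc-13 and shi. They were chosen by gene symbol, as the probe sets to which the platform annotation gives exactly 1 symbol that is on the list Syx1A, nSyb, Syt1, Syn, shi, comt, Rab3, cpx, unc-13 and Snap25. The other 5 names, Syx1A, Syt1, comt, cpx and Snap25, matched no probe set by symbol or by gene identifier and were not analysed here. The whole table named 10845 genes through probe sets with a single symbol.

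The 18 samples were whole heads of Canton-S Drosophila melanogaster, a wild-type strain, aged 2 to 5 days, in 3 groups of 6 biological replicates. Naive flies had 50 min of humidified air only. Flies labelled Fast had the same air period and then 1 exposure of 40 min to 50% ethanol vapor, and flies labelled Chronic had the air period and 5 such exposures. Each sample pooled about 60 heads, and RNA was hybridised to one-colour Affymetrix oligonucleotide arrays. The series concerns tolerance to ethanol that forms after a single exposure or after repeated ones. No group given air for as long as the ethanol groups was analysed here.

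Neurons release transmitter when vesicles fuse with the presynaptic membrane. A SNARE protein on the vesicle, neuronal synaptobrevin (nSyb), zips together with syntaxin and SNAP-25 on the plasma membrane, after Unc-13 has primed the vesicle and the GTPase Rab3 has helped to place it at the active zone. Synapsin (Syn) ties vesicles into a reserve pool, and dynamin, the product of shi, pinches new vesicles off the membrane after fusion. In flies, temperature-sensitive shi alleles block this recycling and are widely used to silence neurons.

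None of the 5 genes passed the threshold in any of the 3 comparisons between groups. The fold changes lay between 0.892 and 1.19, and the 95% intervals of all 15 comparisons together ran from 0.755 to 1.37. The closest to a call was unc-13, the priming factor, which had a fold of 1.19 after 5 exposures relative to 1 exposure (95% interval 1.04 to 1.37, limma adjusted p = 0.129). The most closely bounded was shi, whose 3 intervals stayed between 0.918 and 1.10. Changes beyond 1.37-fold in either direction lay outside every interval.

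The tests came from 1 linear model fitted with limma to log2 values of all 18 arrays, with Benjamini-Hochberg adjustment over all 9317 probe sets tested and a threshold of 0.05. All 5 genes passed the filter on low values. Over all probe sets, 4.42% were called in heads after 1 exposure relative to naive heads, 6.33% after 5 exposures relative to naive and 8.5% after 5 exposures relative to 1. In a test of any difference among the 3 groups 11% were called, against 0 of the 5 genes (limma adjusted p = 0.225 for unc-13, the smallest, to 0.919, the largest, with 1 of 5 at an unadjusted p under 0.05 beside 21.8% of all probe sets). With 5 genes, a count of 0 lies near these background shares. At an unadjusted p under 0.05, 0, 0 and 1 of the 5 genes were counted in these comparisons, beside 14.9%, 17.5% and 18.2% of all probe sets. The 1 was unc-13 after 5 exposures relative to 1. In no comparison did the arrays of 1 group all lie above those of the other for any of the 5 genes. Over all probe sets 3.01%, 3.66% and 5.1% were separated in this way, so with 5 genes a count of 0 lies near these shares too. The comparisons share samples, so they are not independent of each other.

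On the vesicle itself, nSyb encodes the SNARE of neuronal vesicles. Its intensity in the 6 naive arrays had a lowest value of 620.4, a median of 728 and a highest of 791. After 1 exposure these values were 602, 699 and 750.0, and after 5 exposures 556, 645 and 795. The groups overlapped over most of their range, and the highest value of all belonged to a five-exposure array. The group means were 717 ± 72.5, 684 ± 69.3 and 664 ± 84.5 (SD, n = 6 each). The fold of nSyb was 0.953 after 1 exposure (95% interval 0.846 to 1.07, limma adjusted p = 0.79) and 0.924 after 5 exposures (0.820 to 1.04, adjusted p = 0.557), both relative to naive. Between 5 exposures and 1 it was 0.970 (0.860 to 1.09, adjusted p = 0.864).

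Synapsin coats vesicles and holds them in the reserve pool. The Syn probe set gave a lowest intensity of 116, a median of 153 and a highest of 194 in naive heads. The corresponding values were 101, 143 and 169 after 1 exposure and 123, 138 and 178 after 5 exposures. The lowest array of the 18 came from the single-exposure group and the highest from the naive group, and the 3 ranges shared most of their span. The group means were 153 ± 25.0, 139 ± 26.9 and 144 ± 19.3 (SD, n = 6 each). Syn had a fold of 0.900 after 1 exposure (0.755 to 1.07, limma adjusted p = 0.633) and of 0.946 after 5 exposures (0.794 to 1.13, adjusted p = 0.825) relative to naive. Relative to 1 exposure, the fold after 5 exposures was 1.05 (0.882 to 1.25, adjusted p = 0.845). These were the widest intervals among the 5 genes.

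Rab3 is the small GTPase of synaptic vesicles that, in flies, also governs how release machinery is shared out among active zones. Its naive intensities had a lowest value of 142, a median of 188 and a highest of 201. After 1 exposure they were 162, 183 and 213, and after 5 exposures 167, 175 and 193. All 6 five-exposure arrays fell inside the range of the naive arrays. The means were 181 ± 22.6, 184 ± 19.7 and 177 ± 9.11 (SD, n = 6 each). The fold of Rab3 was 1.02 after 1 exposure (0.911 to 1.14, limma adjusted p = 0.928) and 0.981 after 5 exposures (0.877 to 1.10, adjusted p = 0.912) relative to naive. The fold between 5 exposures and 1 was 0.963 (0.861 to 1.08, adjusted p = 0.811).

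Unc-13 acts at the active zone, where it opens syntaxin and makes vesicles ready to fuse. The intensity of unc-13 in naive heads had a lowest value of 237, a median of 331 and a highest of 364. After 1 exposure the values were 239, 290.1 and 325, and after 5 exposures 284, 337 and 412. The single-exposure arrays lay low and the five-exposure arrays high, but the groups overlapped, since 4 single-exposure arrays exceeded the lowest five-exposure array. The means were 319 ± 45.8, 283 ± 30.8 and 338 ± 43.0 (SD, n = 6 each). By mean intensity the order was 5 exposures, naive, 1 exposure, and neither pair of neighbours in this order passed the test. The fold of unc-13 was 0.892 after 1 exposure (0.775 to 1.03, limma adjusted p = 0.466) and 1.06 after 5 exposures (0.924 to 1.22, adjusted p = 0.738), both relative to naive.

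The log2 fold change of unc-13 between 5 exposures and 1 was above 0 in all 30 alternative settings, from 0.15 to 0.30. The adjusted p passed the threshold in 2 of them, without naive replicate 5 (limma adjusted p = 0.0478) and with each array scaled to its neuron markers (adjusted p = 0.0496). Naive replicate 5 is not part of this contrast. It enters through the shared estimate of the spread, and its unc-13 value of 237 was the lowest of all 18 arrays. Without this array the probe sets called in the contrast also rose from 792 to 884, so the shift was not particular to unc-13. In the other alternatives the adjusted p lay between 0.0634 and 0.302. The lowest log2 value, 0.15, was found with the array least like its group left out of each (limma adjusted p = 0.258), and without five-exposure replicate 5 alone it was 0.19 (adjusted p = 0.301).

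**Figure D1:**
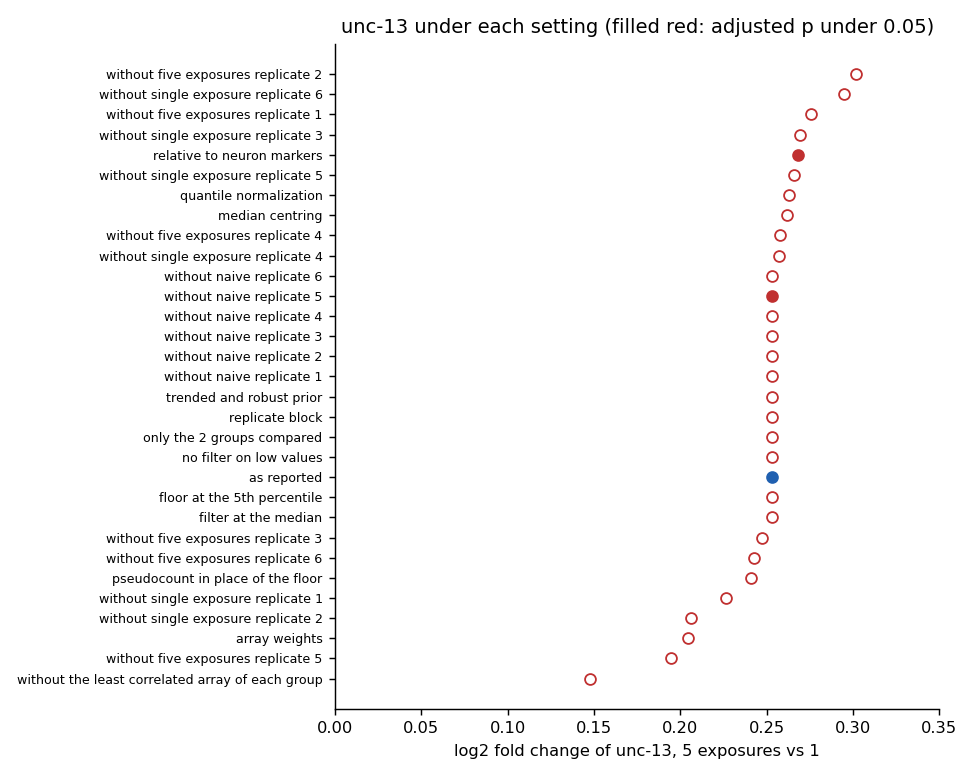
Log2 fold change of unc-13 between the five-exposure and the single-exposure group (horizontal axis) in the fit as reported (blue) and in each of 30 alternative settings (red), sorted by value. Filled red points mark the 2 settings with a limma adjusted p under 0.05, and the values span 0.15 to 0.30.

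At the recycling step, shi encodes dynamin, the GTPase that cuts endocytic vesicles free. The naive arrays had a lowest shi intensity of 573, a median of 584 and a highest of 596. After 1 exposure the values were 576, 604 and 645, and after 5 exposures 549, 592 and 623. The naive arrays lay close together, and the ranges of both ethanol groups were wider and overlapped them. The means were 584 ± 9.04, 607 ± 23.6 and 589.8 ± 30.1 (SD, n = 6 each). The fold of shi was 1.04 after 1 exposure (0.983 to 1.10, limma adjusted p = 0.563), 1.01 after 5 exposures (0.954 to 1.07, adjusted p = 0.917) and 0.971 between 5 exposures and 1 (0.918 to 1.03, adjusted p = 0.654).

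**Figure D2:**
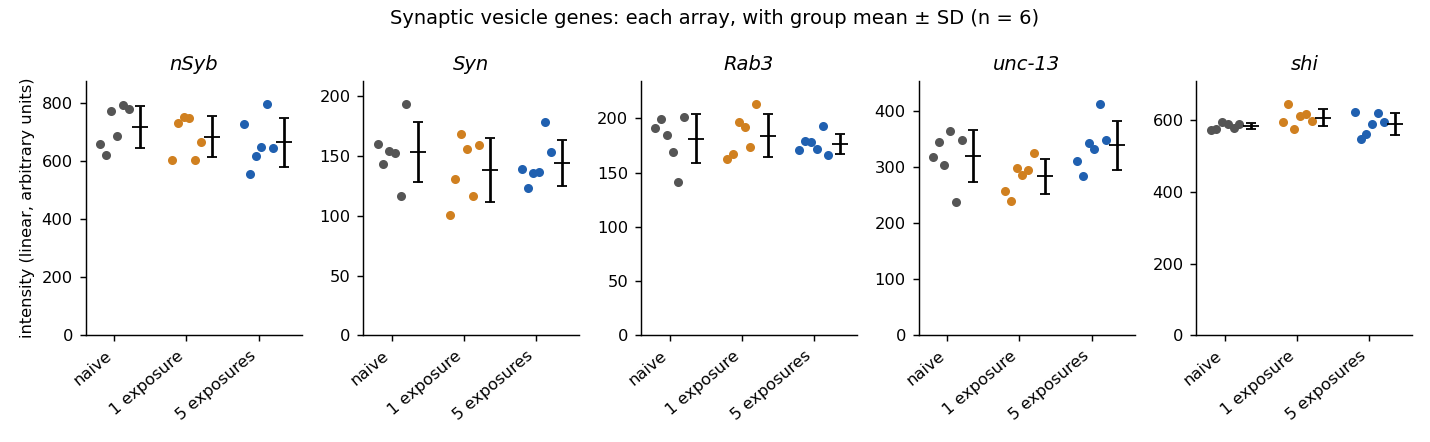
Linear intensity (vertical axis, arbitrary units, from 0) of nSyb, Syn, Rab3, unc-13 and shi in each of the 18 arrays, by group; bars show the group mean ± SD of 6 arrays. The 3 groups overlap in all 5 panels, and the points of shi are the most tightly packed.

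**Figure D3:**
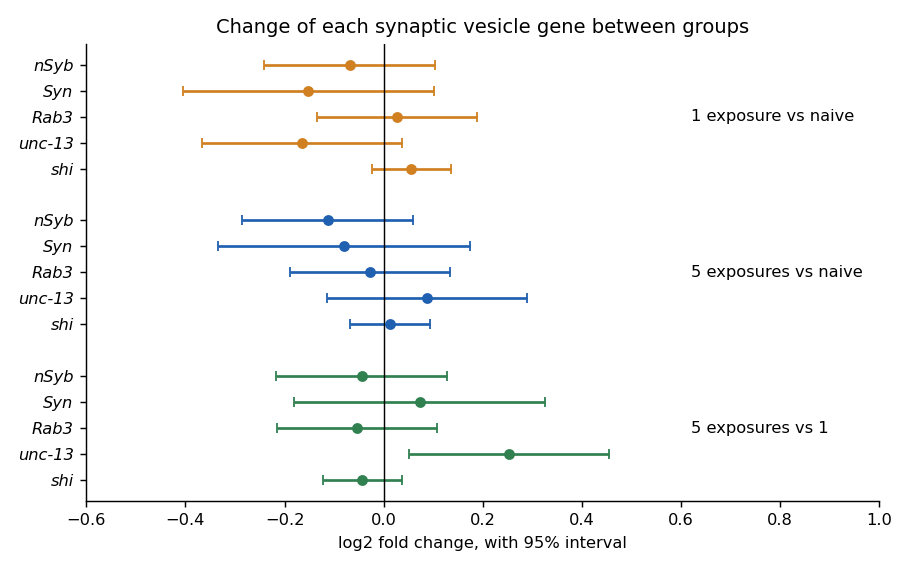
Log2 fold change (horizontal axis) of each gene in the 3 comparisons, with 95% intervals from limma. Of 15 intervals 14 include 0, and the exception is unc-13 after 5 exposures relative to 1, at 0.25 (0.05 to 0.46) with an adjusted p of 0.129.

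The genes differed in how much they varied among replicates of 1 group. The within-group SD of log2 values was 0.24 for Syn, 0.19 for unc-13, 0.16 for nSyb, 0.15 for Rab3 and 0.06 for shi. For each gene these were set beside the probe sets whose mean lay within 0.5 log2 units of its own, which had a median SD between 0.09 and 0.10. Of 4278 probe sets at the level of Syn, 99.0% varied less than Syn did, and of 2363 at the level of unc-13 96.1% varied less. The shares were 90.5% for Rab3 and 89.1% for nSyb. For shi, only 3.67% of 818 probe sets varied less.

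Much of this spread was shared between Syn, Rab3 and unc-13. After each group's mean was subtracted, the log2 values of Syn and Rab3 correlated over the 18 arrays with Pearson's r = 0.76 (permutation within groups, p = 0.00145, adjusted p = 0.00935 over 15 correlations) and Spearman's rho = 0.66 (permutation p = 0.00838, adjusted p = 0.0296). Syn and unc-13 had r = 0.71 (permutation p = 0.00255, adjusted p = 0.00956) and rho = 0.63 (permutation p = 0.0105, adjusted p = 0.0296). Rab3 and unc-13 had r = 0.72 (permutation p = 0.00357, adjusted p = 0.0107) and rho = 0.62 (permutation p = 0.0119, adjusted p = 0.0296). Each pair comes from the same arrays and so shares their RNA and labelling.

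Naive replicate 5 was the lowest naive array for all 3 of these genes and the highest naive array for nSyb. Over all tested probe sets this array correlated with the other naive arrays at a mean r of 0.982, and the other 17 arrays with their groups at 0.988 to 0.992. Without it the correlation was 0.70 for Syn and Rab3, 0.63 for Syn and unc-13 and 0.56 for Rab3 and unc-13. Without the 2 arrays farthest from the median of the first gene of the pair, r was 0.61, 0.60 and 0.49. Within the naive, single-exposure and five-exposure groups, Syn and Rab3 had r = 0.80, 0.88 and 0.45, Syn and unc-13 had r = 0.75, 0.58 and 0.93, and Rab3 and unc-13 had r = 0.76, 0.86 and 0.52 (n = 6 each), so the sign was the same in each group.

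For the vesicle SNARE, no correlation with another of the 5 genes had an adjusted p under 0.05. The correlation of nSyb with Syn was 0.53 (permutation p = 0.0319, adjusted p = 0.0577) and with shi 0.55 (permutation p = 0.0346, adjusted p = 0.0577). Of the tested probe sets with a single symbol, 9.19% had an r with nSyb as high as Syn did and 7.96% as high as shi did. Without five-exposure replicates 2 and 5, the arrays farthest from the median of nSyb, the correlations with Syn and shi were 0.39 and 0.33. Without naive replicate 5, in which nSyb was high and Syn low, nSyb and Syn had r = 0.72, above the 0.70, 0.63 and 0.56 of the other 3 pairs without that array. Within the naive, single-exposure and five-exposure groups r was -0.02, 0.79 and 0.84 for nSyb and Syn (n = 6 each). The correlation of nSyb was 0.03 with Rab3 and 0.05 with unc-13, and that of shi with Syn, Rab3 and unc-13 was 0.16, -0.15 and 0.09 (permutation adjusted p from 0.644 to 0.904 for these 5 pairs).

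**Figure D4:**
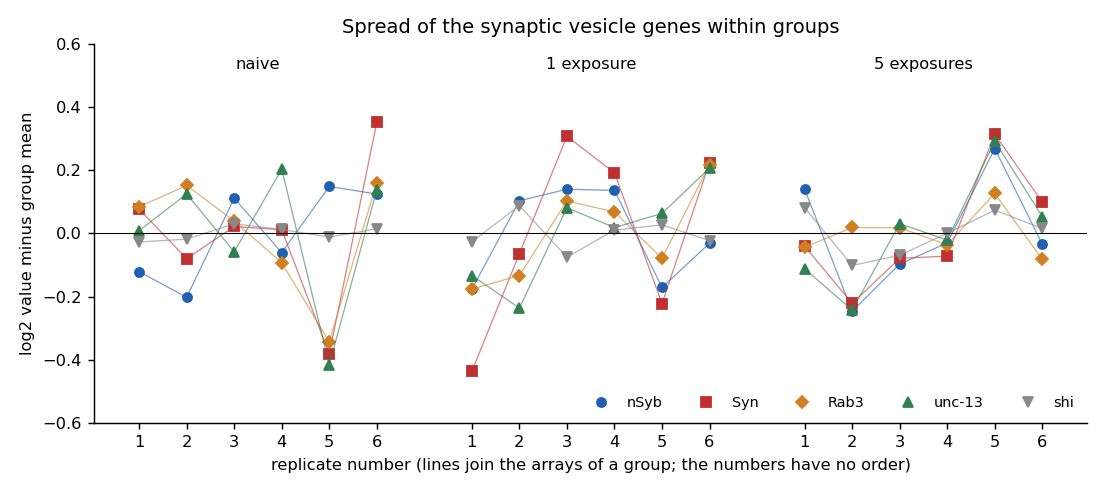
Deviation of each array from its group mean on the log2 scale (vertical axis) for the 5 genes, by group and replicate (horizontal axis); the order of replicates has no meaning. Syn, Rab3 and unc-13 fall together in naive replicate 5, the 5 genes are all above 0 in five-exposure replicate 5, and shi varies least.

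Since the 5 genes take part in transmitter release from neurons, the level of a list of neuron markers was set beside them. Whether each gene was expressed mainly in neurons was not tested. Whole heads hold neurons, photoreceptors, glia, muscle, fat body and other tissues, and in such samples fewer cells of a type and less RNA per cell cannot be told apart. The mean log2 value of 18 tested neuron markers, which include the genes of acetylcholine and GABA synthesis (ChAT and Gad1) and the sodium channel gene para, ranged from 8.21 to 8.32 over naive arrays, from 8.21 to 8.31 after 1 exposure and from 8.18 to 8.45 after 5 exposures. The 8.45 was five-exposure replicate 5, and the median of that group was 8.22. The general neuronal marker elav was below the filter, with a median intensity of 80.7 over the 18 arrays. In limma, 0 of the 18 changed after 1 exposure relative to naive (1 at an unadjusted p under 0.05). Relative to naive 1 fell after 5 exposures, the adhesion gene Nrg, and relative to 1 exposure 2 fell, Nrg and the calcium sensor gene Frq1. The last Nrg call (limma adjusted p = 0.0394) was lost without any 1 of 8 arrays, at up to 0.104, and with arrays scaled to neuron markers (0.0772), and that of Frq1 (adjusted p = 0.0227) without any 1 of 4 arrays, at up to 0.0575. Of 15 muscle markers, 0 changed after 1 exposure (4 at an unadjusted p under 0.05) and 11 fell after 5 exposures relative to naive, with a list mean of 9.26 to 9.62 in naive arrays and 8.99 to 9.32 in five-exposure arrays. After 5 exposures relative to 1, 8 of the muscle markers fell and 0 rose, and the list mean after 1 exposure was 9.35 to 9.49. Photoreceptor markers had list means of 10.55 to 10.68, 10.58 to 10.69 and 10.48 to 10.75, and glia markers of 8.57 to 8.76, 8.59 to 8.69 and 8.51 to 8.69, in the same order of groups. After 1 exposure relative to naive, after 5 exposures relative to naive and after 5 relative to 1, the photoreceptor markers that rose numbered 0, 1 and 0 of 9 and those that fell 0, 1 and 2. Of 12 glia markers 1, 2 and 1 rose and 1, 2 and 2 fell. The fat body list mean was 10.49 to 10.74 in naive arrays, 10.88 to 10.99 after 1 exposure and 10.93 to 11.03 after 5 exposures, so the naive arrays lay below all ethanol arrays. Its group means were 10.65, 10.92 and 10.98. The median log2 fold change of the single markers relative to naive was smaller, 0.06 after 1 exposure and 0.12 after 5 exposures, so the markers moved unequally. Of 10 fat body markers 3, 4 and 2 rose and 1, 0 and 1 fell. Over all probe sets 4.42%, 6.33% and 8.5% were called in these comparisons, and the neuron marker counts lay near these shares. At an unadjusted limma p under 0.05 the neuron markers numbered 1, 2 and 3 and the muscle markers 4, 11 and 11. Photoreceptor markers numbered 1, 4 and 5, glia markers 3, 7 and 5 and fat body markers 6, 4 and 5. The shares over all probe sets were then 14.9%, 17.5% and 18.2%. The part of these lists in the vesicle gene values was not tested beyond the comparisons that follow.

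Within groups, Syn followed the neuron marker mean with r = 0.78 over the 18 arrays (permutation p = 1e-05, the smallest that the resampling can give, adjusted p = 0.00015) and rho = 0.88 (permutation p = 2e-05, adjusted p = 0.0003). The value was 0.78 without naive replicate 5 and single-exposure replicate 1, the arrays farthest from the median of Syn, and 0.87, 0.97 and 0.93 within the naive, single-exposure and five-exposure groups (n = 6 each). Of 8303 tested probe sets with a single symbol, the markers themselves among them, 0.578% had a higher r with that mean. The correlations of the other genes with it were 0.64 for nSyb (permutation adjusted p = 0.0191), 0.63 for unc-13 (adjusted p = 0.0129), 0.55 for Rab3 (adjusted p = 0.00935) and 0.40 for shi (adjusted p = 0.353). The share of probe sets with an r as high was 3.34% for nSyb, 3.65% for unc-13, 6.55% for Rab3 and 14.2% for shi. By Spearman's rho they were 0.50 for nSyb (permutation adjusted p = 0.0854), 0.63 for unc-13 and 0.62 for Rab3 (adjusted p = 0.0296 each) and 0.36 for shi (adjusted p = 0.264). Without the 2 farthest arrays the r of nSyb was 0.45, that of unc-13 0.49, that of Rab3 0.53 and that of shi 0.44. Leaving out five-exposure replicate 5 alone gave an r of 0.85 for Syn, 0.52 for nSyb, 0.54 for unc-13, 0.59 for Rab3 and 0.21 for shi. The scaling to neuron markers used the mean of all 20 neuron markers with a probe set, including those below the filter such as elav. With every array scaled in this way, none of the 5 genes was called in either comparison with naive heads.

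The gene whose log2 value kept the steadiest difference to nSyb over the 18 arrays was Cow, with an SD of the difference of 0.08, followed by CG7378 (0.08). For Syn these were Fas1 and CG1090 (0.11 each), for Rab3 Dscam4 (0.08) and dikar (0.09), for unc-13 ssx (0.09) and Marf (0.10), and for shi CG7065 and PolrMT (0.05 each). The median of this SD over all other probe sets with a single symbol was 0.19 for nSyb, 0.26 for Syn, 0.17 for Rab3, 0.23 for unc-13 and 0.11 for shi. The genes named were picked as the smallest of these SDs, so that they lie below the median follows from the choice. CG7065, PolrMT and shi each varied little by themselves over the 18 arrays (SD of log2 values 0.05, 0.04 and 0.06).

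The wider vesicle cycle was followed in 4 lists of other genes, with 93 names, of which 71 were on the array and 65 passed the filter. After 1 exposure relative to naive 1 of the 65 rose and 0 fell, and the other 64 did not pass. After 5 exposures 1 rose and 1 fell relative to naive, and 1 rose and 2 fell relative to 1 exposure. The shares called, 1.54%, 3.08% and 4.62%, stood beside 4.42%, 6.33% and 8.5% over all probe sets. The median log2 fold changes of the 65 were -0.01, -0.01 and -0.02, and those of all probe sets 0.01, 0.01 and -0.01. The 3 genes called in any comparison were Hsc70-4, Exn and Rab3-GEF.

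Among 11 SNAREs and fusion regulators, none was called (1, 3 and 0 at an unadjusted p under 0.05 in limma, in the order of comparisons above). Over all probe sets 4.42%, 6.33% and 8.5% were called, so with 11 genes a count of 0 lies near these shares. At an unadjusted limma p under 0.05 the shares were 14.9%, 17.5% and 18.2%. Rop, the fly Munc18 that binds syntaxin, had a fold of 1.01 after 1 exposure (0.939 to 1.08) and 0.961 after 5 exposures (0.897 to 1.03) relative to naive. The corresponding folds were 0.959 (0.837 to 1.10) and 0.961 (0.839 to 1.10) for alphaSnap, the adaptor that brings NSF to spent SNARE complexes, and 0.981 (0.884 to 1.09) and 0.934 (0.842 to 1.04) for the vesicle chaperone gene Csp.

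In the list of active zone and calcium entry genes, Exn and Rab3-GEF were called among 20 tested. Each was called after 5 exposures relative to naive and relative to 1 exposure, and neither was called after 1 exposure relative to naive (limma adjusted p = 0.869 for Exn and 0.924 for Rab3-GEF). Over all probe sets, 6.33% were called after 5 exposures relative to naive and 8.5% relative to 1 exposure. With 20 genes, a count of 1 higher and 1 lower lies near these shares. Exn encodes Ephexin, an exchange factor that in fly motor neurons takes part in presynaptic homeostasis. Its intensity was 336 ± 14.9 in naive heads, 330.1 ± 17.6 after 1 exposure and 289.8 ± 16 after 5 exposures (SD, n = 6 each). The highest five-exposure array (313) reached above the lowest naive array (312) and the lowest single-exposure array (310.3), so the groups overlapped at their edges. Exn had a fold of 0.863 relative to naive (0.808 to 0.921, limma adjusted p = 0.00472) and of 0.878 relative to 1 exposure (0.823 to 0.937, adjusted p = 0.00955). With the arrays scaled to neuron markers the second call was lost (adjusted p = 0.0937), at a log2 fold change of -0.17 against -0.19 without the scaling. A second Exn probe set was not called, at log2 0.05 from naive (adjusted p = 0.729) and -0.03 from 1 exposure (adjusted p = 0.821).

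Rab3-GEF encodes the exchange factor that loads Rab3 with GTP. Its intensity was 258 ± 13.3 in naive heads, 261 ± 11.1 after 1 exposure and 289 ± 16.3 after 5 exposures (SD, n = 6 each). All 6 five-exposure arrays (275 to 318) lay above the highest naive array and the highest single-exposure array (271 each). Such separation was seen for 3.66% of all probe sets relative to naive and for 5.1% relative to 1 exposure. The fold of Rab3-GEF was 1.12 relative to naive (1.05 to 1.20, limma adjusted p = 0.0309) and 1.11 relative to 1 exposure (1.04 to 1.18, adjusted p = 0.0453). Both calls were close to the threshold. The first was lost without naive replicate 2 or 6 or five-exposure replicate 3, 4 or 5, at an adjusted p of up to 0.088, and the second without any 1 of 12 arrays (naive replicates 1, 4 and 6, single-exposure replicates 1, 2, 3, 4 and 6, five-exposure replicates 1, 3, 4 and 5), at up to 0.113. With the arrays scaled to neuron markers both were lost (adjusted p = 0.0739 and 0.0635), at log2 fold changes of 0.17 and 0.16 against 0.16 and 0.15 without the scaling. The substrate of this factor, Rab3, was not called in either comparison, as given above.

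The scaffold genes of the active zone were not called on the probe set with the highest signal. The fold of brp, the core scaffold gene, was 1.01 (0.925 to 1.10) after 1 exposure and 0.984 (0.901 to 1.07) after 5 exposures, and that of cac, the gene of the presynaptic calcium channel, was 1.01 (0.914 to 1.11) and 1.06 (0.964 to 1.17), all relative to naive. Rim, whose product links Rab3 to the release site, was tested on 3 probe sets. The one with the highest signal had a fold of 1.03 after 5 exposures (0.969 to 1.10), whereas another fell by 0.14 on the log2 scale (limma adjusted p = 0.0476) and the third was at -0.02 (adjusted p = 0.908).

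Of 13 genes of the vesicle membrane and of transmitter loading, none was called (3, 2 and 0 at an unadjusted p under 0.05 in limma). With 13 genes, a count of 0 also lies near the shares over all probe sets. The nearest to a call was Syngr, the synaptogyrin gene, with a mean intensity of 456 in naive heads, 419 after 1 exposure and 403 after 5 exposures. Its fold after 5 exposures relative to naive was 0.885 (0.820 to 0.955, limma adjusted p = 0.051). The glutamate loading gene VGlut had a fold of 0.969 (0.882 to 1.06) after 1 exposure and 0.920 (0.838 to 1.01) after 5 exposures.

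Among 21 endocytosis and recycling genes, 1 was called after 1 exposure relative to naive and 0 after 5 exposures relative to naive. After 5 exposures relative to 1 exposure, 1 was called. Over all probe sets 4.42%, 6.33% and 8.5% were called, so with 21 genes these counts lie near the shares. The gene called was Hsc70-4 in both comparisons. It encodes the constitutive Hsp70 that strips clathrin from vesicles and is also a general cytosolic chaperone. Its intensity was 2302 ± 122 in naive heads, 2965 ± 309 after 1 exposure and 2448 ± 129 after 5 exposures (SD, n = 6 each). All 6 single-exposure arrays (2756 to 3563) lay above all naive arrays (2169 to 2484) and all five-exposure arrays (2254 to 2581). Such separation was seen for 3.01% of all probe sets after 1 exposure relative to naive and for 5.1% after 5 exposures relative to 1. The fold of Hsc70-4 was 1.28 after 1 exposure relative to naive (1.18 to 1.39, limma adjusted p = 0.000309) and 1.06 after 5 exposures relative to naive (adjusted p = 0.484). It was 0.828 in heads after 5 exposures relative to 1 (0.762 to 0.899, limma adjusted p = 0.00311), a call that was lost under quantile normalization (adjusted p = 0.0806). Clathrin heavy chain (Chc) had a fold of 1.02 (0.959 to 1.09) after 1 exposure and 1.01 (0.947 to 1.07) after 5 exposures relative to naive, and endophilin (EndoA), a partner of dynamin, 0.974 (0.908 to 1.04) and 0.971 (0.905 to 1.04). The amphiphysin gene Amph had a fold of 0.900 after 5 exposures on its stronger probe set (0.833 to 0.973, adjusted p = 0.114), and its second probe set fell by 0.20 on the log2 scale (adjusted p = 0.0189).

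**Figure D5:**
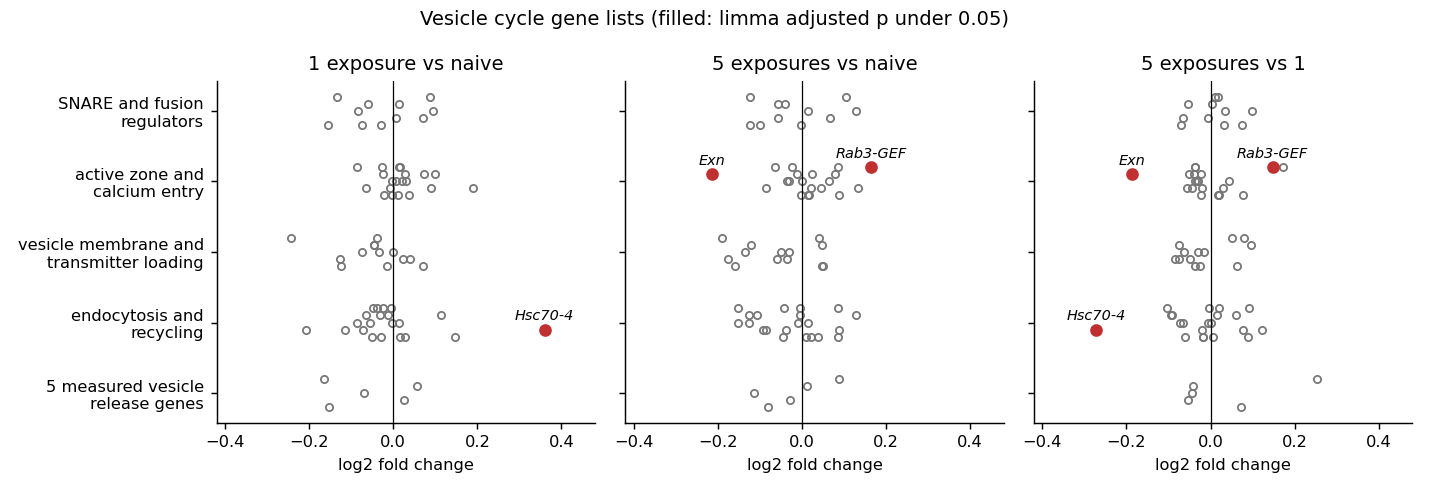
Log2 fold change (horizontal axis) of the 65 tested genes of the 4 vesicle cycle lists and of the 5 measured vesicle release genes (rows) in the 3 comparisons; filled points passed a limma adjusted p of 0.05. Hsc70-4, Exn and Rab3-GEF are the genes called, and the open points lie between -0.24 and 0.25.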

How the data were processed

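Each array contributed a linear intensity for every probe set, in a table deposited by the authors whose array medians (125.4 to 129.3) had been brought close together before deposit. Which software did this was not given in the sources used here. Probe sets were named from the platform annotation, with older symbols replaced through the Release 6 gene table.

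Intensities under the 20th percentile of all arrays pooled (57.8) were raised to it before taking log2. After removal of 44 control probe sets and of the dimmest 1/3 (mean under 85.8), 9317 of 14010 probe sets were tested. A single limma 3.58.1 model (R 4.3.3) held the 3 groups, with 15 residual degrees of freedom and two-sided tests. For list genes with several probe sets, the brightest one stood for the gene. The named genes were the members, every list gene called and the 2 genes with the steadiest log2 difference to each member. Other pathway genes were named for their role after their values were seen. The limma fit was tested on simulated data with known changes. Its values were drawn independently for each array and probe set, so deviations shared across an array were not covered. Correlations used 100000 permutations within groups, and the family of 15 was chosen after seeing the data. Members and lists were chosen with earlier results of these data known.

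A planned test between probe sets of 1 gene had no pair to run on. Replicate numbers were not treated as pairs. No arrays were duplicates (SD of log2 differences 0.109 to 0.264). The number of arrays limits the precision. The limma p-values set group differences against the spread between samples labelled as replicates, moderated over probe sets. A code in the sample titles runs consecutively by group, and the labels do not say what it stands for. If it gives an order of processing, the effects of that order and of treatment cannot be told apart. Other tools were scipy 1.17.1, numpy 2.4.6, pandas 2.3.3 and matplotlib 3.10.9 under Python 3.11.15.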

Additional observations from a re-analysis of the deposited data

How the results depend on the processing

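The 15 fold changes of the 5 genes were refitted in 30 alternatives each, and 2 of 450 refits made a call. Both were of unc-13 after 5 exposures relative to 1, without naive replicate 5 and relative to neuron markers, so the count of members called was 1 relative to neuron markers and 0 to 1 with each array left out. In the other comparisons and in the test over the 3 groups it was 0 throughout. Of the 450 refits, 13 changed the sign of an uncalled value, over 6 values; unc-13 after 5 exposures relative to naive went from 0.09 to -0.05 on the log2 scale with the array least like its group left out of each. Over all probe sets the counts with 1 array left out were 329 to 445, 428 to 675 and 608 to 884 in the order 1 exposure and 5 exposures relative to naive and 5 relative to 1, and relative to neuron markers the second count was 355 against 590. The same alternatives were applied to the vesicle cycle lists after the data were seen. Of 2 list genes called after 5 exposures relative to naive, 1 was called relative to neuron markers, 5 with array weights, 4 with the array least like its group left out of each (also chosen after seeing the data) and 1 to 4 with an array left out: 1 without naive replicate 2 or 6 or five-exposure replicate 4, and 4 without naive replicate 5. Of 3 called after 5 exposures relative to 1, 1 was called relative to neuron markers. Causes were not tested. With the replicate block, 502, 683 and 898 probe sets and 0 members were called; same-numbered arrays of 2 groups correlated from -0.24 to 0.52, over 0.1 in 9 of 18 pairs, and 7 of 18 matched best with their own number, which leaves undecided whether the numbers pair the arrays; the block raised the 3 counts from 412, 590 and 792.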
